A study of Homo sapiens with 12 samples.

Results

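The response of HEYA8 cells to 1 µM colforsin daropate, the lowest of 3 doses in the series, was compared with that of vehicle-treated cells after 48 h. HEYA8 is an established human ovarian cancer cell line, and no other line was studied. The comparison rests on 6 of 12 RNA-seq libraries, chosen by their labelled dose: 3 with 0 µM (vehicle) and 3 with 1 µM. The other 6 libraries, with 5 or 10 µM, entered the fit as further groups. Every group was kept in DMEM, with fetal bovine serum in the maintenance medium. Each library title also carries a number, 6, 8 or 11, which recurs at every dose and whose meaning the labels do not give. Libraries are named by dose and label number, and the 1 µM libraries were compared with vehicle within label numbers. The design text describes each group as biological replicates. The p-values measure the spread between libraries of all dose groups that is left once the label number is taken out. Of 21207 genes in the table, 17767 lay more than 1 above the lowest value of the table in 3 or more libraries and were tested.

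Colforsin daropate dissolves in water and derives from forskolin, a plant diterpene that activates adenylyl cyclases, the enzymes that make cyclic AMP (cAMP). Cyclic AMP acts through protein kinase A (PKA) and through the exchange factors EPAC, and phosphodiesterases break it down. PKA phosphorylates the transcription factor CREB, which binds cAMP response elements in promoters, and several phosphodiesterase and phosphatase genes are textbook CREB targets.

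Promoter sequences are shown because a full cAMP response element, TGACGTCA, is the best-known sequence through which this pathway acts. The RefSeq windows (GRCh38.p14) run from 250 bases before to 50 bases after a gene's start, and the element reads the same on both strands. Of 112 named genes that changed and had a window, those of FN1, DUSP1 and 1 of the CREM starts, which rose, and IL32, which fell, are printed 5′ to 3′ on the gene's strand with the element in capitals. They lie at chr2:215436019-215436318 (minus strand), chr5:172771146-172771445 (minus strand), chr10:35195652-35195951 (plus strand) and chr16:3065153-3065452 (plus strand). The element starts at base 68, 126, 201 and 130 of the window, in that order. The CREM window belongs to a start inside the gene (chr10:35126791-35212958). PPP1R15A, a phosphatase subunit gene that fell, also had the element, at base 193 of its window, which is not printed. These genes are examples and not a complete listing, so other genes among the 112 may have the element.
FN1: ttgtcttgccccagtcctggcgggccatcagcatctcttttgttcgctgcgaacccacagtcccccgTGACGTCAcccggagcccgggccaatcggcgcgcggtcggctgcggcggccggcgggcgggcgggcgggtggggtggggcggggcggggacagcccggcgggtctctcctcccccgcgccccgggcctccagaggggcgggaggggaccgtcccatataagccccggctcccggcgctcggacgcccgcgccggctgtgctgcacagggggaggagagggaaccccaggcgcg
DUSP1: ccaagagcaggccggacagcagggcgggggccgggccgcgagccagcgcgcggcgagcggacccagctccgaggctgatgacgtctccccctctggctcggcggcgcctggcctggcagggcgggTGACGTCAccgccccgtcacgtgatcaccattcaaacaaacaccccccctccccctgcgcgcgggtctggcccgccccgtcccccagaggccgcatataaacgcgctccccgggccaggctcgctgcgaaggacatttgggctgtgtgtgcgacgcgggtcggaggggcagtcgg
CREM: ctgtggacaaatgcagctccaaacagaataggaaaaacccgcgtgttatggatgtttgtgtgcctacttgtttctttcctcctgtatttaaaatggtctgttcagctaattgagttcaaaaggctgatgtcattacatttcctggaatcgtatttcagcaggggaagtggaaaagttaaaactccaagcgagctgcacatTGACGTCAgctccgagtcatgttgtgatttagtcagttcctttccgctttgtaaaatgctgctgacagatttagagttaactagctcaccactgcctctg
IL32: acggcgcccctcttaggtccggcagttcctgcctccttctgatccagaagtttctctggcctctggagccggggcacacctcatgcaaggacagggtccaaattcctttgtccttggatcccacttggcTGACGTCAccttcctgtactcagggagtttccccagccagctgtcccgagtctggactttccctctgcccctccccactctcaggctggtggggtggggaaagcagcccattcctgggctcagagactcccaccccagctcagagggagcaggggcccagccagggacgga
The element was present in 649 of 35116 windows of all genes (1.85%). Among tested genes with a window it was found for 436 of 11641 (3.75%), for 25 of 831 genes that rose (3.01%) and for 28 of 674 that fell (4.15%). Its core, TGACG, searched on both strands and contained in the full element, was found for 37.3% of genes that rose, 39.6% of genes that fell and 39.5% of all tested genes. For both motifs the share among all tested genes lay between those of the genes that rose and the genes that fell. A match is a description of the letters in the window and not evidence of binding.

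The values are the authors' variance-stabilised expression values, on a scale that is close to log2 of the normalised count for abundant genes and flattens towards a floor of 4.86 for rare ones. A difference of 1 is close to a doubling for an abundant gene and understates the fold of a rare one. Normalised counts were recovered by inverting the scale and are given beside the differences. Between 24 and 48.7 megareads fell on genes in a library, fewest in vehicle library 6. Libraries that share a label number deviated together from their group means (r between 0.316 and 0.777). Numbers 8 and 11 also deviated together. Vehicle library 8 had r = 0.506 with 1 µM library 8 and 0.569 with 1 µM library 11. For vehicle library 11 the values were 0.537 and 0.619. Label number 6 stood apart from 8 and 11 in many genes, cell cycle genes among them. The markers of the line's labelled type were mixed. KRT8, KRT18, KRT7 and PAX8 were abundant, and PAX8 rose (6730 counts in vehicle, 10140 at 1 µM). EPCAM (8.0 counts in vehicle, 5.52 at 1 µM) and KRT19 (13.2 and 4.25) were close to the floor. WT1 (141 and 137) and MSLN (144 and 136) were low, and MUC16, FOLR1, EMX2, CDH1 and CLDN3 had no values. The mesenchymal genes VIM and ZEB1 were high. Of the mesenchymal markers CDH2, FN1, SNAI2 and SPARC rose, and VIM, ZEB1 and TWIST1 did not pass the test. Leukocyte markers (3 of 5 in the table) summed to 12.6 to 19.0 counts in vehicle and 6.31 to 9.94 at 1 µM. Fibroblast markers (3 of 6) summed to 43.3 to 188 and to 88.1 to 398. Endothelial markers (4 of 4) summed to 1943 to 8041 and to 3940 to 9116, mostly CDH5, which was highest in label number 6 (7585, 1853 and 1725 counts in vehicle libraries 6, 8 and 11, and 8722, 4038 and 3764 at 1 µM) and did not pass the test. The part of these cell type markers in the results was not tested. In bulk RNA, fewer cells of a type and less RNA per cell cannot be told apart.

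At 1 µM, 1201 genes rose and 934 fell, which is 6.76% and 5.26% of the genes tested (limma with the label number as a block, two-sided, Benjamini-Hochberg adjusted p under 0.05). Most of these changes were small. The median absolute difference among the 2135 genes was 0.40, and 1458 of them (68.3%) moved by less than 0.5. A difference of 1 or more was seen for 82 genes that rose and 17 that fell, and 7 genes rose by 2 or more. Of the genes that rose, 1197 were higher in 3 of 3 label numbers, and of those that fell, 931 were lower in 3 of 3. Over all genes tested, 21.4% were higher and 22.1% lower in 3 of 3. All 3 libraries at 1 µM lay above all 3 vehicle libraries for 817 of the genes that rose, and below them for 620 of those that fell, against 9.55% and 8.77% of all genes tested. The genes were called on these same values, so their agreement in direction and their lack of overlap are not separate evidence.

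The block carried much of this count. Without it, 210 genes rose and 109 fell (1.18% and 0.613% of genes tested), and all 319 were among the 2135. The balance of rises and falls depended on scaling: rises made up 56.3% of the calls on the deposited values, 46.2% after the libraries were shifted to a common median (1002 rises, 1167 falls) and 40.2% with limma-voom on the recovered counts (912 rises, 1356 falls). Single libraries also moved the counts. Leaving out vehicle library 6 gave 1518 rises and 1306 falls. Without vehicle library 8 they were 684 and 432, and without vehicle library 11 643 and 397. Without 1 µM library 6, 8 or 11 they were 623 and 450, 510 and 350, and 775 and 471. Without all libraries of label number 8 only 45 and 10 remained, and without those of number 11 96 and 33. None of the 150 named genes that were called changed direction under any of these settings. They were called on these same values, so this is not separate evidence.

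**Figure D1:**
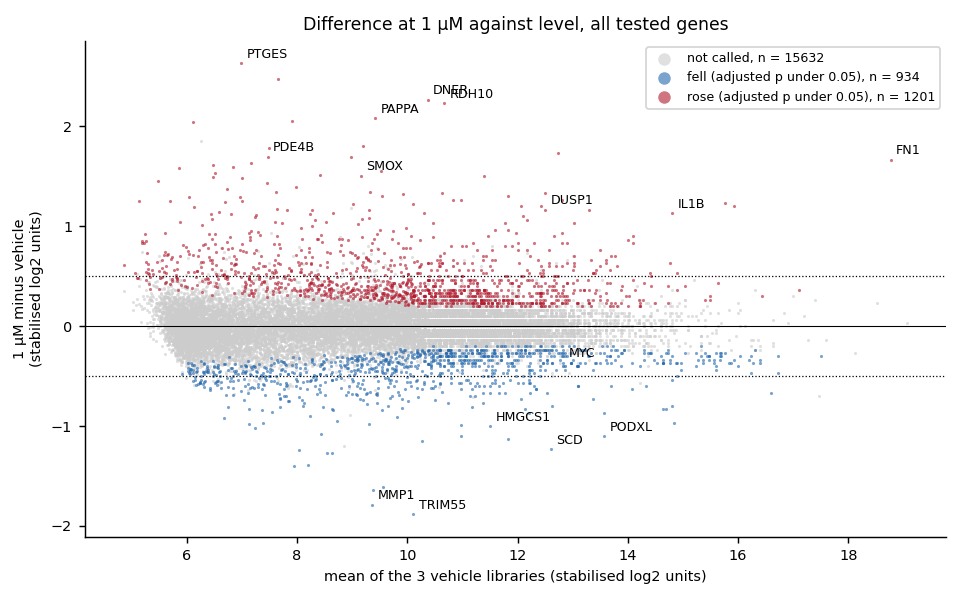
Difference between 1 µM and vehicle (y axis, stabilised scale) against the mean vehicle level of each of 17767 genes (x axis, stabilised scale); coloured points are the 1201 genes that rose and the 934 that fell. Most coloured points lie within 0.5 of the zero line, and the labelled genes at the edges are the largest changes.

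Among genes with a symbol, PTGES, DNER, RDH10 and PAPPA rose most. PTGES, the inducible synthase that makes prostaglandin E (ENSG00000148344, chr9:129738331-129753047), stood at 6.75, 7.16 and 7.03 in vehicle libraries 6, 8 and 11 and at 9.19, 9.77 and 9.88 in the 1 µM libraries of the same numbers. Every 1 µM library lay more than 2 above every vehicle library. The difference over the 3 pairs was 2.63 ± 0.12 (limma adjusted p = 1.64e-07), or 75.6 ± 17 against 743 ± 190 normalised counts (SD, n = 3), 9.82-fold. Here and below the SE of a difference is that of the limma fit of all 12 libraries, not of the 3 pairs alone. DNER, a transmembrane protein that binds Notch (ENSG00000187957, chr2:229357629-229714558), went from 10.2, 10.4 and 10.5 to 12.6, 12.5 and 12.8. The groups did not overlap, and the difference was 2.27 ± 0.09 (adjusted p = 7.78e-08, 4.99-fold). RDH10, the retinol dehydrogenase that starts retinoic acid synthesis, went from 11.2, 10.4 and 10.4 to 13.5, 12.5 and 12.7. Label number 6 was highest at both doses, the groups did not overlap, and the difference was 2.23 ± 0.09 (adjusted p = 8.18e-08, 4.89-fold). These 3 genes kept their call under every alternative tried.

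PAPPA, a metalloprotease that frees insulin-like growth factors from their binding proteins (chr9:116153804-116402322, plus strand), rose from 9.0, 9.60 and 9.65 to 11.4, 11.4 and 11.7, by 2.08 ± 0.19 (adjusted p = 4.61e-05). Its antisense gene PAPPA-AS1, on the minus strand within the same interval, rose by 1.78. How the counting treated strand is not given in the sources used here, so reads of this pair cannot be told apart. The same limit holds for other named genes that overlap a gene on the opposite strand. Among them are RDH10 (RDH10-AS1 and RPL7), IL6 (IL6-AS1 and STEAP1B) and MMP1 (WTAPP1). SECTM1, a secreted and transmembrane protein of the immune system, rose from 8.39, 7.64 and 7.71 to 10.1, 9.85 and 9.96, by 2.06 ± 0.17 (adjusted p = 2.73e-05). IL6, a cytokine (chr7:22725884-22732002), rose from 8.90, 9.14 and 9.56 to 11.1, 10.8 and 11.1, by 1.80 ± 0.15 (adjusted p = 2.89e-05, 3.69-fold). For PAPPA, SECTM1 and IL6 the lowest 1 µM library was above the highest vehicle library. Without all libraries of label number 8 their adjusted p was 0.052, 0.0563 and 0.0505.

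ACKR3, a scavenging chemokine receptor, shows what the block does. Its values were 7.35, 5.66 and 5.35 in vehicle and 9.77, 7.28 and 7.45 at 1 µM. Vehicle library 6 was as high as the 1 µM libraries 8 and 11, so the groups overlapped, while the 1 µM library was the higher one in each pair. The paired difference was 2.05 ± 0.18 (adjusted p = 4.55e-05), and the adjusted p without the block was 0.207. ADAMTS5, an aggrecan-cleaving protease, and CDH6, a cadherin, had the same form: they rose by 1.63 and 1.60 with the block and had adjusted p = 0.400 and 0.167 without it.

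FN1, fibronectin (ENSG00000115414, chr2:215360440-215436172), was far more abundant than the genes above. It stood at 19.4, 18.5 and 18.4 in vehicle and at 20.6, 20.3 and 20.4 at 1 µM. The groups did not overlap, although vehicle library 6 was closer to the 1 µM libraries than the others. The difference was 1.67 ± 0.17 (adjusted p = 9.87e-05), and 0.0588 was the adjusted p in a fit of the 6 libraries alone. FN1 took 1.85%, 1.00% and 0.896% of the reads on genes in vehicle and 4.14%, 3.31% and 3.54% at 1 µM. The 10 most abundant genes together took 6.51% to 8.39% in vehicle and 8.84% to 11% at 1 µM. The part of this shift in the changes of other genes was not tested.

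The remaining large rises were SHISA2, an endoplasmic reticulum protein that dampens FGF and WNT signalling (1.73 ± 0.07), the phosphodiesterase PDE4B (1.70 ± 0.10), the bradykinin receptor BDKRB2 (1.69 ± 0.14) and HGD, an enzyme of tyrosine breakdown (1.61 ± 0.11). None of the 4 had overlapping groups, and all 4 stayed called without the block. One gene without a symbol, ENSG00000213058, a processed pseudogene in GENCODE 29, had a difference of 2.48 ± 0.69 (adjusted p = 0.0369). It stood at 5.99, 10.4 and 6.57 in vehicle and at 10, 10.2 and 10.2 at 1 µM, so it was higher in 2 of 3 label numbers only. It is uncertain because a processed pseudogene can take reads of its parent gene.

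**Figure D2:**
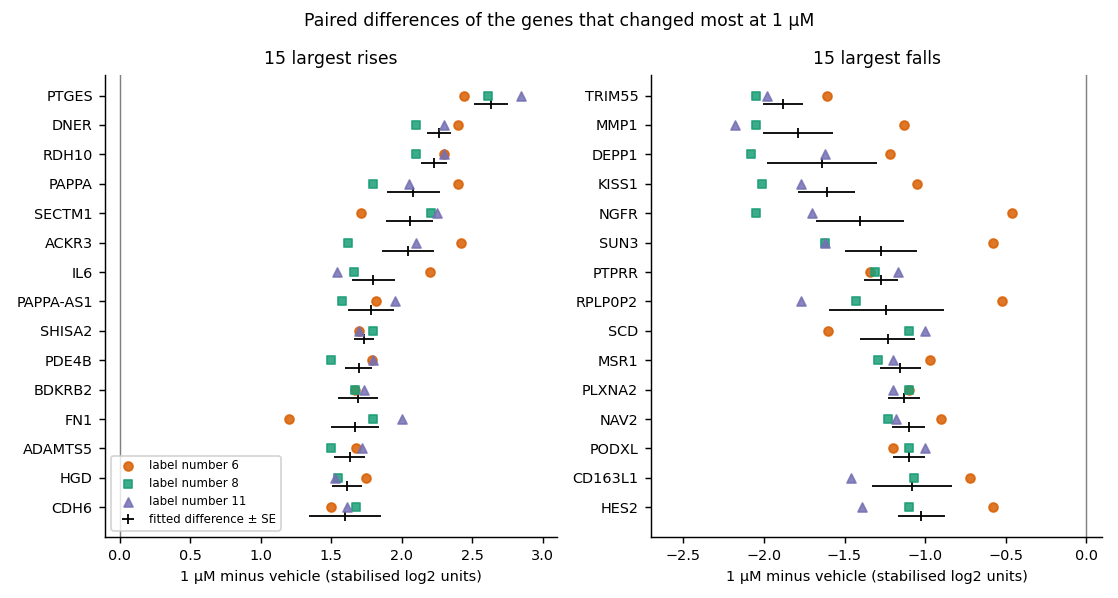
Differences between 1 µM and vehicle (x axis, stabilised scale) within label numbers 6, 8 and 11, with the fitted difference and its standard error, for the 15 largest rises and 15 largest falls among genes with a symbol and 1 direction in 3 of 3 label numbers. The rule puts every point on 1 side of zero; number 6 lies nearest zero for NGFR, SUN3 and RPLP0P2, while the points of SHISA2 and PODXL lie close together.

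Falls were fewer and smaller than rises at the extremes. TRIM55, a muscle RING finger protein, had the largest fall, from 10.8, 9.78 and 9.74 to 9.19, 7.73 and 7.76, by 1.88 (SE 0.12, adjusted p = 5.86e-06, 0.0917 without the block). All 3 libraries at 1 µM were below all 3 vehicle libraries. MMP1, interstitial collagenase (ENSG00000196611, chr11:102789920-102798160), stood at 8.53, 9.62 and 9.93 in vehicle and at 7.4, 7.57 and 7.75 at 1 µM. The groups did not overlap, and the difference was -1.79 ± 0.22 (adjusted p = 0.000333), or 654 ± 309 against 138 ± 22.7 counts. For MMP1 the adjusted p was 0.0693 in a fit of the 6 libraries alone. It was 0.108 without all libraries of label number 8 and 0.085 without those of number 11. PTPRR, a phosphatase that inactivates MAP kinases, fell from 8.24, 8.92 and 8.72 to 6.90, 7.61 and 7.55, by 1.27 (SE 0.10, adjusted p = 2.48e-05).

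PLXNA2, a semaphorin receptor, NAV2, a neuron navigator, and PODXL, the sialomucin podocalyxin, fell by 1.13, 1.10 and 1.10, with no overlap of groups and adjusted p = 0.00101, 0.000992 and 0.000581 without the block. HES2, a basic helix-loop-helix repressor, went from 6.82, 7.39 and 7.50 to 6.24, 6.29 and 6.11 (-1.02 ± 0.14), from 101 to 27.5 counts. For KISS1, the kisspeptin precursor, NGFR, the p75 neurotrophin receptor, and DEPP1, a gene known as a FOXO target, the groups overlapped. They fell by 1.61, 1.40 and 1.64 with the block and had adjusted p = 0.183, 0.109 and 0.342 without it. NGFR had 0.0531 without 1 µM library 8, and DEPP1 0.0715 without 1 µM library 8 and 0.0572 without 1 µM library 11. RPLP0P2, a ribosomal protein pseudogene, and CD163L1, a scavenger receptor, were also among the 15 largest falls and lost the call when single libraries were left out. Their adjusted p then reached 0.188 for RPLP0P2 and 0.0895 for CD163L1.

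Of 9 tested adenylyl cyclase and G protein genes, GNAI2, an inhibitory G protein alpha subunit, rose by 0.27 ± 0.06, and no other member passed the test. GNAI2 made up 11.1% of the list, against 6.76% of all genes tested that rose. Its adjusted p was 0.0109, and it was 0.0521 without 1 µM library 6 and 0.0783 without 1 µM library 8. Among the cyclases, ADCY9 had a difference of 0.20 ± 0.07 (adjusted p = 0.0962).

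Of 19 PKA subunits, inhibitors and anchors, the anchors AKAP1 and AKAP6 fell by 0.37 and 0.45 (10.5%, against 5.26% of all genes tested). No catalytic or regulatory subunit passed the test. Of 9 EPAC and RAP genes, the exchange factor gene RAPGEF5 rose by 0.51 (11.1%, against 6.76% of all genes tested). The small GTPase RAP1A and the GTPase activator RAP1GAP2 fell by 0.34 and 0.35 (22.2%, against 5.26%). AKAP6 and the 3 RAP-pathway genes lost the call in at least 1 omission of a single library. The highest adjusted p was 0.115 for AKAP6, 0.188 for RAPGEF5, 0.0785 for RAP1A and 0.107 for RAP1GAP2. EPAC1, listed as RAPGEF3, had a difference of 0.20 ± 0.11 (adjusted p = 0.257). Of 10 CREB factors and coactivators, CREM, which also encodes the inducible repressor ICER, rose from 9.90, 10.2 and 10.2 to 10.3, 10.5 and 10.6, by 0.37 ± 0.06 (adjusted p = 0.00323, 0.188 without the block). The CREM groups did not overlap, and CREM was the only member of its list called (10%, against 6.76% of all genes tested that rose).

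Among 13 tested cAMP phosphodiesterases, which break cAMP down, 5 rose and 2 fell. Of all genes tested, 6.76% rose and 5.26% fell. PDE4B went from 7.4, 7.61 and 7.39 to 9.19, 9.11 and 9.19, with no overlap, which is 4.17-fold in counts (123.9 to 516.8). PDE4D, its close paralog, went from 11.7, 12.1 and 12.2 to 12.4, 13 and 13.1 (0.83 ± 0.10, adjusted p = 0.000249, 0.0514 without the block), and its groups did not overlap. PDE7A, PDE7B and PDE8A rose by 0.30, 0.60 and 0.23. PDE2A, the cGMP-stimulated form, fell by 0.57 and PDE11A by 0.58, the latter between 26.8 and 8.30 counts. PDE3A, with 5.56 ± 1.30 counts in vehicle and 28.2 ± 16.8 at 1 µM, missed the threshold at this dose (0.70 ± 0.24, adjusted p = 0.0761). Without any 1 of the 6 libraries only 3 members rose, and PDE7A, PDE7B, PDE8A and PDE2A each lost the call in at least 1 such omission. Their highest adjusted p was 0.227 for PDE7A, 0.167 for PDE7B, 0.120 for PDE8A and 0.0809 for PDE2A.

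Textbook CREB target genes went both ways. Of 35 tested, 11 rose (31.4%, against 6.76% of all genes tested) and 5 fell (14.3%, against 5.26%), with a median difference of 0.10. DUSP1, a phosphatase of MAP kinases (chr5:172768090-172771195), rose from 12.3, 12.6 and 12.6 to 13.6, 13.7 and 13.7, by 1.17 ± 0.09 (adjusted p = 1.11e-05). BDNF, a neurotrophin, rose by 0.98 ± 0.08, and the granin VGF and secretogranin SCG2 by 1.25 and 1.26. Without the block the adjusted p was 0.328 for VGF and 0.243 for SCG2. The groups of DUSP1 and BDNF did not overlap. Immediate-early members were among those that fell: EGR1 by 0.69, ATF3 by 0.42 and the antiproliferative BTG2 by 0.68, with the kinase SGK1 by 0.50 and the insulin receptor substrate IRS2 by 0.42. EGR1 had adjusted p = 0.0569 without 1 µM library 8, and SGK1 0.0530 without 1 µM library 6. Over all single omissions the adjusted p reached 0.0546 for IRS2, 0.0796 for ATF3 and 0.0781 for BTG2. NR4A1, an orphan nuclear receptor and a common readout of the pathway, had a difference of -0.29 ± 0.09 (adjusted p = 0.0583). Without the block, 3 members rose and 1 fell. With single libraries left out, 2 to 7 members fell, the fewest without vehicle library 11 and the most without vehicle library 6.

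MAP kinase feedback genes, only some of which restrain ERK signalling, were likewise divided. Of 22, 5 were higher (22.7%, against 6.76% of all genes tested) and 3 lower (13.6%, against 5.26%). DUSP1, DUSP4 (0.38), DUSP10 (0.32), ETV5 (0.27) and IER3 (0.43) rose, and PTPRR, SPRY4 and DUSP16 fell by 1.27, 0.43 and 0.44. Without 1 µM library 8, 3 members rose, and 2 to 4 fell over all single omissions. The adjusted p rose as far as 0.0573 for DUSP16, 0.116 for DUSP10 and 0.0581 for ETV5 in these omissions.

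Of 29 tested matrix and metalloprotease genes, 14 rose (48.3%, against 6.76% of all genes tested) and 5 fell (17.2%, against 5.26%), with a median difference of 0.37. Besides FN1, the collagen VI chains COL6A1 and COL6A2 rose by 1.30 and 0.90, COL1A1 by 1.07 and tissue plasminogen activator PLAT by 1.23. SPARC, a collagen-binding glycoprotein, rose by 0.70, and the collagen cross-linking enzymes LOX and LOXL2 by 0.63 and 0.50. These stayed called whichever single library was left out. COL6A1 stood at 12.7, 11.3 and 11.5 in vehicle and at 14.1, 12.6 and 12.7 at 1 µM, so vehicle library 6 matched 1 µM libraries 8 and 11. Without the block the adjusted p was 0.168 for COL6A1 and 0.516 for COL1A1. The proteases MMP1 and MMP9 (-0.80), the inhibitors TIMP3 (-0.62) and SERPINE2 (-0.33) and the transmembrane collagen COL13A1 (-0.47) fell. Without the block, 3 members rose and 1 fell, and with single libraries left out 10 to 14 rose and 2 to 4 fell, the falls being 2 without vehicle library 11 and without 1 µM library 8. The adjusted p reached 0.0701 for TIMP3, 0.139 for SERPINE2 and 0.209 for COL13A1 with a single library left out, and COL13A1 lost its call in each of the 6 omissions. COL1A1 is also a fibroblast marker and carried the higher sum of fibroblast markers at 1 µM, with a mean of 49.3 counts in vehicle and 168 at 1 µM. The other 2 markers detected were lower on average, PDGFRA at 20.2 and 14.4 counts and PDGFRB at 26.8 and 16.6, and neither passed the test.

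Of 24 tested NF-kB and cytokine genes, 6 rose (25%, against 6.76% of all genes tested), 2 fell (8.33%, against 5.26%) and 16 did not pass, with a median difference of 0.03. The median paired difference was 0.295 in label number 6 and -0.10 and -0.19 in numbers 8 and 11. Those that rose were IL6, IL11 (1.55), IL33 (1.30), CSF3 (1.17), IL1B (1.13) and LIF (0.57). IL1B was abundant, at 14.4, 14.9 and 15.1 in vehicle and 15.8, 15.9 and 16.1 at 1 µM, with no overlap (adjusted p = 0.000132, 2.16-fold). IL11, IL33 and LIF had adjusted p = 0.0896, 0.0550 and 0.0640 without the block. IL32, a proinflammatory cytokine, fell by 0.68 ± 0.08 and BIRC3, an inhibitor of apoptosis and NF-kB target, by 0.91 ± 0.14. The chemokine CXCL1 had a difference of 0.73 ± 0.24 that missed the threshold (adjusted p = 0.0646). The count of rises was 6 whichever single library was left out. The falls numbered 8 without vehicle library 6 and 2 without any other.

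Prostaglandin and leukotriene genes changed at particular steps. PTGES rose as described, while the cyclooxygenase PTGS2, which supplies its substrate, had a difference of 0.23 ± 0.30 (adjusted p = 0.669) at 52.4 and 72.6 counts. The prostaglandin E receptor PTGER4 rose by 0.57 ± 0.09, and its groups overlapped (0.490 without the block). ABCC4, a prostaglandin exporter, and LTA4H, leukotriene A4 hydrolase, each fell by 0.30. In all, 3 of 10 tested members rose (30%, against 6.76% of all genes tested) and 2 fell (20%, against 5.26%). Leaving out single libraries took the adjusted p to 0.0600 for ABCC4 and 0.170 for LTA4H.

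In the insulin-like growth factor axis, 7 of 15 members rose (46.7%, against 6.76% of all genes tested) and 1 fell (6.67%, against 5.26%). Besides PAPPA, the binding proteins IGFBP3 (0.75), IGFBP4 (0.37) and IGFBP5 (0.55), PAPPA2 (0.37), the PAPPA inhibitor STC2 (0.53) and the adaptor IRS1 (0.60) rose. IRS2 fell. IGF1R, the receptor, had a difference of -0.20 ± 0.08 (adjusted p = 0.138). Between 3 and 7 members rose with single libraries left out, fewest without 1 µM library 8, and 2 without the block. The highest adjusted p was 0.0870 for IRS1, 0.0546 for IRS2, 0.0823 for IGFBP4, 0.171 for IGFBP5 and 0.0780 for PAPPA2 in these omissions.

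Retinoid genes moved in one direction among those that passed: 6 of 12 rose (against 6.76% of all genes tested) and none fell, with a median difference of 0.27. At an unadjusted limma p under 0.05 they were 8 and 0, and with limma-voom 5 and 0. RDH10 oxidises retinol, and DHRS3, which reduces retinaldehyde, rose from 11.9, 12 and 12.1 to 12.8, 12.7 and 12.8 (0.77 ± 0.07, adjusted p = 4.31e-05) with no overlap. ALDH1A3, a retinaldehyde dehydrogenase, rose by 0.53 ± 0.06 (0.110 without the block), CYP26B1, which degrades retinoic acid, by 0.63, and the receptors RARB and RARG by 0.43 and 0.31. STRA6, the retinol uptake receptor, was near the floor at 5.46 counts in vehicle. Single omissions left 5 or 6 rises, and 3 remained without the block. RARG was the one lost (adjusted p up to 0.116).

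Of 12 polyamine genes, SMOX, spermine oxidase (chr20:4120980-4187747), changed most. It stood at 9.12, 9.19 and 9.17 in vehicle and at 10.7, 10.6 and 10.7 at 1 µM. The spread within each group was 0.1 or less, the difference 1.51 ± 0.07 (adjusted p = 2.10e-07), and the counts 515 ± 14.2 and 1569 ± 64.3. ODC1, ornithine decarboxylase, which opens the pathway, rose by 0.63 ± 0.13 (adjusted p = 0.00725, 0.0546 without 1 µM library 8). AZIN1, which stabilises ODC1, fell by 0.27. Its adjusted p was up to 0.0704 with single libraries left out. In all, 2 of the 12 rose (16.7%, against 6.76% of all genes tested) and 1 fell (8.33%, against 5.26%).

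Of 21 tested targets of NRF2, the regulator of antioxidant genes, 7 rose (33.3%, against 6.76% of all genes tested) and none fell (9 and 0 at an unadjusted limma p under 0.05, 7 and 0 with limma-voom). The exporter ABCC3 rose from 8.27, 7.81 and 7.84 to 10.0, 9.0 and 9.09 (1.39 ± 0.12, adjusted p = 2.89e-05, 0.0775 without the block), and its groups did not overlap. AKR1C3, an aldo-keto reductase, GCLM, of glutathione synthesis, TALDO1, of the pentose phosphate pathway, and the thioredoxin reductase TXNRD1 rose by 0.57, 0.52, 0.53 and 0.47. NQO1 (0.60) also passed, but reached an adjusted p as high as 0.158 when single libraries were left out. SLC7A11, the cystine importer, had a difference of 0.63 ± 0.22 that missed the threshold (adjusted p = 0.0801).

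Of 24 tested cholesterol synthesis and uptake genes, 12 fell (against 5.26% of all genes tested), none rose and 12 did not pass (at an unadjusted limma p under 0.05, 17 and 0; with limma-voom, 14 and 0). The differences ran from -1.0 to -0.09. In 3 of 3 label numbers 23 were lower, against 22.1% of all genes tested, and the median paired difference was -0.40 in each label number. HMGCS1, which makes HMG-CoA (chr5:43289395-43313512), read 11.5 in all 3 vehicle libraries and 10.5 in all 3 libraries at 1 µM. At this level the values are rounded to steps of 0.1, so a spread below that step is not visible. The difference was -1.0 ± 0.06 (adjusted p = 4.03e-06, 6.72e-05 without the block). SQLE, squalene epoxidase, went from 12.6, 12.7 and 12.6 to 11.7, 11.9 and 11.9 (-0.80 ± 0.07, adjusted p = 2.48e-05). Neither gene had overlapping groups.

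Along the rest of the pathway, IDI1 and FDFT1, before squalene, fell by 0.63 and 0.57, and MSMO1, SC5D, HSD17B7 and DHCR7, after it, by 0.83, 0.40, 0.41 and 0.58. SREBF2, which encodes the regulator of these genes, fell by 0.67, the sterol carrier STARD4 by 0.67 and INSIG1 by 0.57. With any single library left out 10 to 12 members fell, without the block 4. HSD17B7 and INSIG1 lost the call in some omissions. Their adjusted p reached 0.0586 and 0.0993. Of 10 genes of the oxysterol response, the exporter ABCG1 rose by 0.48 ± 0.12 (adjusted p = 0.0204) and no other passed. That is 10% of the list, near the 6.76% of all genes tested that rose. ABCG1 lost the call in 4 of the 6 omissions (adjusted p up to 0.115).

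Members of the fatty acid synthesis list, which also holds regulators, went both ways. Of 18 tested, 6 fell (33.3%, against 5.26% of all genes tested) and 4 rose (22.2%, against 6.76%). SCD, stearoyl-CoA desaturase, went from 12.6, 12.7 and 12.5 to 11, 11.6 and 11.5 (-1.23 ± 0.17, adjusted p = 0.000824, 0.0647 without the block). The 1 µM library 6 was the lowest, and the groups did not overlap. FASN, fatty acid synthase, fell by 0.60 ± 0.10, and ACACA, acetyl-CoA carboxylase, ELOVL6, FADS2 and ACSL3 by 0.43, 0.40, 0.43 and 0.37. INSIG2, which retains SREBP in the endoplasmic reticulum, rose by 0.50. So did the acetyl-CoA synthetase ACSS2 by 0.42 (0.0682 without 1 µM library 8), the desaturase SCD5 by 0.29 and the acyl-CoA synthetase ACSL1 by 0.27. SREBF1 had a difference of 0.28 ± 0.09 (adjusted p = 0.0523). None of these fatty acid genes was called without the block, and 1 rise was left without 1 µM library 8 and 2 without vehicle library 8 or 1 µM library 11. The adjusted p went up to 0.131 for SCD5, 0.205 for ACSL1 and 0.0540 for FADS2 in single omissions. Among the rises, the regulator INSIG2 alone kept the call in every single omission.

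**Figure D3:**
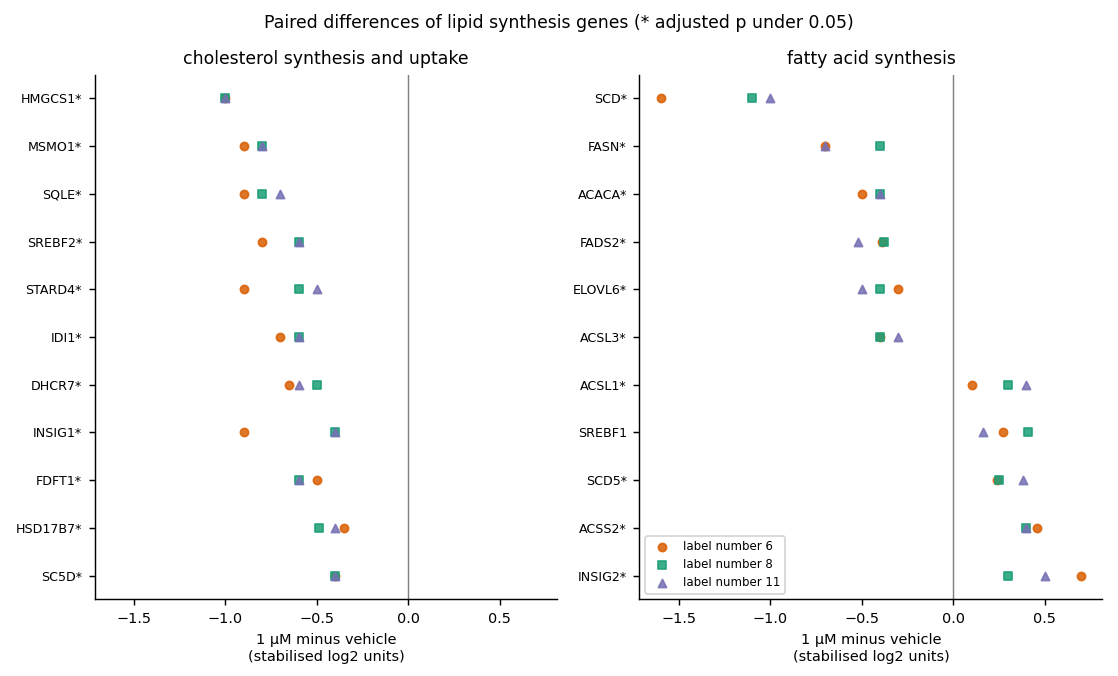
Differences between 1 µM and vehicle (x axis, stabilised scale) within label numbers 6, 8 and 11 for the cholesterol and fatty acid genes described in the text, an asterisk marking those that passed the test. The cholesterol genes shown lie left of zero, while the fatty acid genes fall on both sides, SCD farthest left.

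Of 30 tested unfolded protein response genes, which serve protein folding and export, 8 rose (26.7%, against 6.76% of all genes tested) and none fell (15 and 2 at an unadjusted limma p under 0.05, 6 and 1 with limma-voom). The median difference was 0.20, and 19 were higher in 3 of 3 label numbers (21.4% of all genes tested were). SEC24D, a coat protein of export vesicles, went from 11.2, 10.9 and 10.9 to 11.7, 11.4 and 11.4, 0.5 in each pair on values rounded to 0.1 (0.50 ± 0.05, adjusted p = 8.48e-05, 0.0772 without the block). XBP1 rose by 0.37, the chaperone DNAJC3 by 0.30, DERL1 by 0.27, CALR, PDIA3 and PDIA4 by 0.23 each and DNAJB11 by 0.20. The count depended on single libraries: 11 rose without vehicle library 6 and 3 or 4 without any other, and 1 without the block. SEC24D, XBP1 and DNAJC3 kept the call in every omission, and the adjusted p reached 0.0873 for DERL1, 0.133 for CALR, 0.0979 for PDIA3, 0.156 for PDIA4 and 0.180 for DNAJB11. Of 27 genes of the integrated stress response 4 rose (14.8%, against 6.76% of all genes tested) and 2 fell (7.41%, near the 5.26% of all genes tested). At an unadjusted limma p under 0.05 they were 11 and 2. DDIT4 (0.63), SLC7A5 (0.47), SLC3A2 (0.37) and SLC7A1 (0.23) rose, and ATF3 and PPP1R15A (-0.23) fell. Without vehicle library 8 or 1 µM library 8 or 11, 2 of these rises were left, and 6 members rose without vehicle library 6. Here the highest adjusted p was 0.0991 for SLC3A2, 0.187 for SLC7A1, 0.0796 for ATF3 and 0.121 for PPP1R15A.

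Ribosomal protein genes showed a small change shared by many members. Of 79 tested, 49 fell (62%, against 5.26% of all genes tested) and none rose. At an unadjusted limma p under 0.05 they were 68 and 0, and with limma-voom 62 and 0. The median difference was -0.27, and 64 were lower in 3 of 3 label numbers (22.1% of all genes tested were). The median paired difference was -0.20, -0.30 and -0.40 in label numbers 6, 8 and 11. RPS25 went from 14.7, 14.8 and 14.9 to 14.1, 14.3 and 14.4 (-0.53 ± 0.06, adjusted p = 0.000165), and RPS3 from 16.5, 16.8 and 16.9 to 16, 16.4 and 16.4 (-0.47 ± 0.07). The 2 genes had groups that did not overlap. In the fit without the block 4 members fell. Leaving out single libraries gave 58 falls without vehicle library 6, 20 without vehicle library 8, 28 without vehicle library 11, and 27, 32 and 21 without 1 µM library 6, 8 and 11. Ribosomal protein genes have many processed pseudogenes, and how the counting treated reads of more than one place is not given in the sources used here.

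Part of the translation factors fell too. Of 35 tested, 10 fell (28.6%, against 5.26% of all genes tested) and none rose. At an unadjusted limma p under 0.05 they were 15 and 0, and with limma-voom 14 and 0. Among the falls were EIF2S3 and EIF3L (-0.37 each), EIF4B (-0.33) and EEF1A1 (-0.30), and no member was called without the block. The falls numbered 13 without vehicle library 6 and 2 to 4 without any other library. EIF4B and EEF1A1 reached adjusted p = 0.0524 and 0.175. MYC, named in the series title, fell from 12.6, 12.9 and 13 to 12.3, 12.6 and 12.5, by 0.37 (SE 0.08, adjusted p = 0.0134), with overlapping groups. Its adjusted p was 0.340 without the block, 0.0709 without vehicle library 11, 0.0699 without 1 µM library 8 and 0.0713 without 1 µM library 11. Of 60 MYC targets 8 fell (13.3%, against 5.26% of all genes tested) and 3 rose (5%, against 6.76%). At an unadjusted limma p under 0.05 they were 17 and 4, and with limma-voom 14 and 2. The nucleolar genes NPM1 (-0.30) and FBL (-0.50) were among the falls, and the transferrin receptor TFRC (0.80) and ODC1 among the rises. The falls numbered 4 without vehicle library 8, 5 without vehicle library 11 and 3 without 1 µM library 8 or 11, and 1 rise was left without 1 µM library 8.

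**Figure D4:**
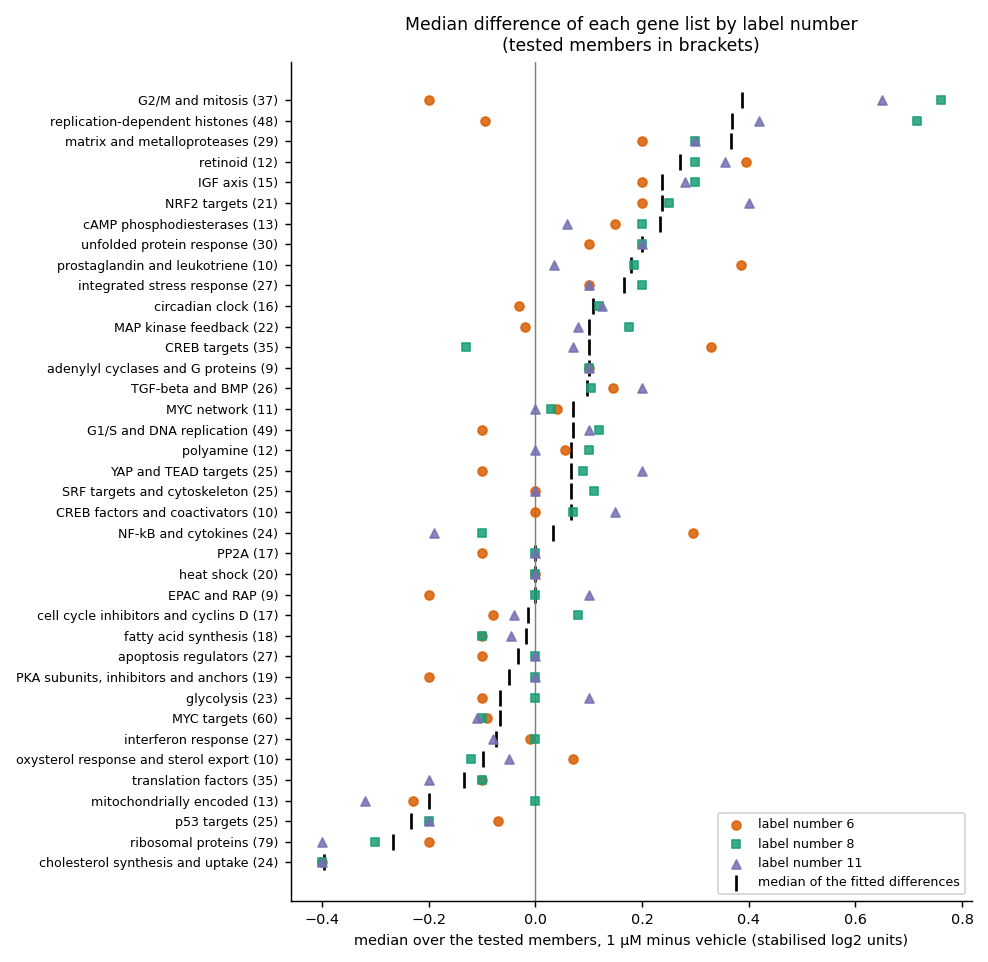
Median difference between 1 µM and vehicle (x axis, stabilised scale) of each gene list with 9 or more tested members, for the fit and within label numbers 6, 8 and 11. Ribosomal and cholesterol lists lie below zero in every number, and G2/M genes and histones lie on opposite sides of zero in number 6 and in numbers 8 and 11.

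Cell cycle genes differed between label numbers more than between doses. In the G2/M list (37 tested) none passed the limma test in either direction, none with limma-voom, and 1 rose at an unadjusted p under 0.05. The median level was 11.2, 9.0 and 8.78 in vehicle libraries 6, 8 and 11 and 11, 9.89 and 9.50 at 1 µM. The median paired difference was -0.20 in label number 6 and 0.76 and 0.65 in numbers 8 and 11. Without vehicle library 6, 31 of the 37 rose, and without all libraries of number 6, 34. PLK1, a mitotic kinase, shows the pattern, with 9.98, 7.22 and 6.89 in vehicle and 10.0, 8.43 and 8.03 at 1 µM (0.79 ± 0.40, adjusted p = 0.231). The 48 replication-dependent histone genes behaved alike: none passed with limma or limma-voom, 3 rose at an unadjusted p under 0.05, and 33 rose without vehicle library 6. Of 49 genes of G1/S and DNA replication, CDK2 rose by 0.60 ± 0.08, with groups that did not overlap (10.8, 10.5 and 10.5 to 11.3, 11.1 and 11.2). CDK2 was the only member of its list called (2.04%, against 6.76% of all genes tested that rose). Vehicle library 6 was also the shallowest library, and 20.5% of its reads were not uniquely placed, against 23.7% and 25.6% in vehicle libraries 8 and 11. The part of these values in the split was not tested.

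Of the inhibitors and D cyclins, CDKN1C, the inhibitor p57, rose from 8.99, 8.15 and 8.15 to 10.2, 8.87 and 8.95 (0.91 ± 0.09, adjusted p = 7.87e-05, 0.314 without the block), and its groups overlapped. CCND3 rose by 0.28, while CCND2 (-0.62), CDK6 (-0.27), BTG2 and GADD45A (-0.27) fell. In this list of 17 tested genes, 2 rose (11.8%, against 6.76% of all genes tested) and 4 fell (23.5%, against 5.26%). With single libraries left out the adjusted p reached 0.119 for CCND3, 0.184 for CDK6, 0.0781 for BTG2 and 0.0914 for GADD45A. CDKN1A, the inhibitor p21, had a difference of -0.40 ± 0.12 (adjusted p = 0.0575).

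The changes under 0.5 with the smallest p included PIK3CD, a phosphoinositide kinase subunit (0.47 ± 0.06), CSNK1D, a casein kinase (0.43), SURF4, a cargo receptor of the secretory pathway (0.37) and TOM1, of endosomal sorting (0.47). HNRNPA1, a splicing regulator, read 13.5 in all 3 vehicle libraries and 13.1, 13.2 and 13.1 at 1 µM (-0.37 ± 0.05, adjusted p = 0.00134). IER5, an immediate-early gene, fell from 10.8, 11.1 and 11.1 to 10.5, 10.6 and 10.5 (-0.47), and TIPARP, an ADP-ribosyltransferase, by 0.43. For HNRNPA1, IER5 and TIPARP all libraries at 1 µM were below all vehicle libraries. Rounding limits such calls: 1006 of the 2135 genes (47.1%) had all 6 values at 10 or more, where 1 step is 0.1, and 806 of these moved by less than 0.5, so a change of a few steps decides them.

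**Figure D5:**
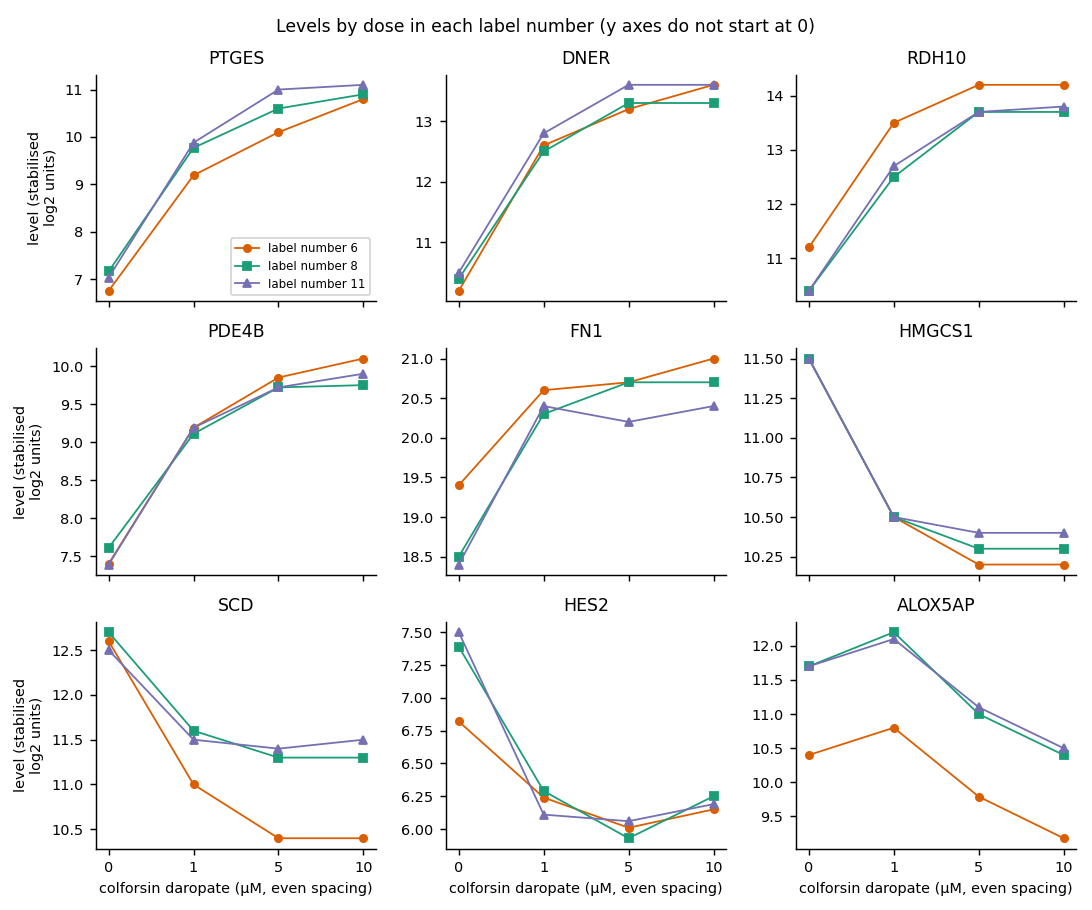
Stabilised values at 0, 1, 5 and 10 µM by label number for 9 genes. PTGES, DNER and RDH10 go on rising from 1 to 5 µM, FN1, HMGCS1, SCD and HES2 stay near their 1 µM level, and ALOX5AP is higher at 1 µM and lower at 5 and 10 µM than in vehicle.

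Set beside the higher doses, genes that responded at 1 µM took different courses. These contrasts use the same 1 µM libraries as the comparison with vehicle. Over all genes, 922 (5.19%) differed between 5 and 1 µM and 3713 (20.9%) between 10 and 1 µM. PTGES was higher by a further 0.95 at 5 µM and 1.32 at 10 µM than at 1 µM (adjusted p = 0.000955 and 3.35e-05), and RDH10 by 0.97 and 1.00. FN1 differed from 1 µM by 0.10 (SE 0.17, adjusted p = 0.800) at 5 µM and 0.27 (0.289) at 10 µM, beside its rise of 1.67. HMGCS1 was -0.20 from its 1 µM level at both doses (adjusted p = 0.0917 and 0.0412), SCD -0.33 and -0.30 (0.293 and 0.232), and HES2 -0.21 and -0.02 (0.434 and 0.961). A p that misses the threshold does not show that the doses act alike.

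Other genes changed mainly above 1 µM or in another direction. IGFBP3 was 1.89 and 2.73 above its 1 µM level at 5 and 10 µM, beside a rise of 0.75 at 1 µM. ABCC3 was 1.5 and 2.2 above, beside 1.39. PDE3A and SLC7A11, which missed the threshold at 1 µM, were 1.80 and 1.63 above their 1 µM level at 10 µM (adjusted p = 0.000469 and 0.000488). ALOX5AP, the activator of 5-lipoxygenase, went from 10.4, 11.7 and 11.7 in vehicle to 10.8, 12.2 and 12.1 at 1 µM, a rise of 0.43 ± 0.06 (adjusted p = 0.000862, 0.744 without the block). At 5 µM it stood at 9.79, 11 and 11.1, and at 10 µM at 9.18, 10.4 and 10.5, which is 1.07 and 1.67 below the 1 µM level (adjusted p = 4.69e-06 and 4.85e-08). Within each label number the 1 µM library was the highest of the 4 doses. BCL2A1, an anti-apoptotic BCL2 relative, rose by 0.73 ± 0.11 at 1 µM and was 0.53 below that level at 10 µM (adjusted p = 0.00533).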

How the data were processed

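RNA-seq values of 12 HEYA8 libraries were used as deposited. They are variance-stabilised values made by the authors, on a scale close to log2 for abundant genes. DESeq2 and the build GRCh38 (hg38) are named in the submitters' processing notes. Which aligner, counter, strand setting and annotation were used is not given in the sources used here. Libraries were made from total RNA after ribosomal depletion, per the labels' protocols. Of 21211 entries, 4 named no gene and stayed out of every test. One of them counts reads not uniquely placed, 20.2% to 25.6% of a library among those compared. Symbols were found for 17273 genes (81.4%) and positions in GENCODE 29 for 20439.

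The curve behind the scale was recovered from the steps of single reads. With it, 97.5% of 57682 low values came out as whole reads (tolerance 0.005), against 25.2% with depths of the wrong library. This gave the depths and the normalised counts.

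Differences were tested with limma 3.58.1 (R 4.3.3) on the deposited values of all 12 libraries, with the label number as a block and a mean-variance trend, and p-values were Benjamini-Hochberg adjusted over all 17767 genes tested. The pairing comes from the labels: same-numbered libraries correlated in their deviations at 0.316 to 0.777, others at -0.711 to 0.569, the highest between numbers 8 and 11. The procedure was tested on simulated data. The genes, lists and tests were chosen with earlier results of these data known. Named are, among genes with a symbol, the 15 largest rises and falls of 1 direction in 3 of 3 label numbers, MYC, up to 3 called members a direction and 2 not called for each of 39 lists, and the 10 changes under 0.5 with the smallest p in each direction. Other list members were named after their values were seen. Alternatives were no block, the 6 libraries alone, other filters, scalings and weights, limma-voom, and omission of each library and label number. A few list members are not reported here by name.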

Additional observations from a re-analysis of the deposited data

How the results depend on the processing

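Leaving the label number out of the fit (no replicate block) moved the counts from 1201 rises and 934 falls to 210 and 109. A fit of the 6 libraries alone, with fewer residual degrees of freedom, gave 281 and 224, and array weights gave 3027 and 2752. Leaving out whole label numbers or single libraries gave 45 to 1518 rises and 10 to 1306 falls: 45 and 10 without number 8, 96 and 33 without number 11, 684 and 432 without vehicle library 8, 643 and 397 without vehicle library 11, and 623 and 450, 510 and 350, and 775 and 471 without 1 µM library 6, 8 and 11. Of 150 named genes that were called, 106 kept the call in every omission of a single library, 46 without the block and 75 in the 6 libraries alone. Without all libraries of label number 6, 138 of them kept it, but only 24 did without number 8 and 35 without number 11. None of these 150 genes reversed direction, which is not separate evidence, because they were called on these same values. Other filters, quantile scaling, a common median, log2 of the count and limma-voom kept both counts within 1.5 times. Rounding in steps of 0.1 from 10 up limits small changes in abundant genes.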

Other observations

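Several gene groups that the comparison of 1 µM with vehicle has not yet described held single changed members. Of 27 interferon response genes 2 rose (7.41%, against 6.76% of all genes tested) and 4 fell (14.8%, against 5.26%). The regulators IRF1 (0.47 ± 0.08) and IRF7 (0.40 ± 0.12) rose, and IFI44L (-0.72), IFI44 (-0.54), the RNA sensor IFIH1 (-0.39) and the peptide transporter TAP1 (-0.36) fell. Among 23 glycolysis genes, the lactate exporter SLC16A3 went from 13.7, 13.5 and 13.6 in vehicle libraries 6, 8 and 11 to 14.2, 14.3 and 14.3 at 1 µM (0.67 ± 0.09, limma adjusted p = 0.000482) and PFKFB3 rose by 0.63. SLC16A3 overlaps CSNK1D on the other strand, and reads of the pair cannot be told apart. The hexokinases HK1 and HK2 fell by 0.30 and 0.57 and the enolase ENO2 by 0.73. Of the glycolysis genes 8.7% rose and 13% fell, against 6.76% and 5.26% of all genes tested. With single libraries left out the adjusted p reached 0.241 for IRF7, 0.0673 for IFIH1, 0.0823 for IFI44L, 0.0784 for IFI44, 0.160 for TAP1, 0.0780 for HK2 and 0.118 for ENO2.

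In the TGF-beta and BMP list 5 of 26 genes rose (19.2%, against 6.76% of all genes tested) and none fell. At an unadjusted limma p under 0.05 they were 8 and 1, and with limma-voom 6 and 1. The rises were SMAD3 (0.77), the activin chain INHBA (0.60), TGFBR2 (0.43), ID3 (0.39) and SMAD2 (0.30). Of 25 YAP and TEAD targets, tissue factor F3 (0.57), RBMS3 (0.41) and AMOTL2 (0.30) rose and GADD45A fell (12% and 4%, against 6.76% and 5.26%). The rises numbered 9 without vehicle library 6 and 1 without vehicle or 1 µM library 11. Of 25 SRF and cytoskeleton genes, calponin CNN2 (0.43) and the myosin MYH9 (0.30) rose and the tropomyosin TPM2 fell by 0.60. These are 8% and 4% of the list, near the shares of all genes tested. Of 25 p53 targets, 1 rose, TIGAR (0.38), and 4 fell, SESN1, BTG2, RRM2B and DDB2 (4% and 16%, against 6.76% and 5.26%). The falls numbered 12 without vehicle library 6 and 2 without vehicle library 8 or 11 or 1 µM library 6. They were 14 at an unadjusted limma p under 0.05 and 11 with limma-voom. Of 27 apoptosis regulators 1 rose (3.70%) and 2 fell (7.41%), shares near the 6.76% and 5.26% of all genes tested. BCL2A1 rose, and BCL2L1 (-0.60 ± 0.09, adjusted p = 0.00162, 0.271 without the block) and BIRC3 fell. Of 16 clock genes, the repressor BHLHE41 alone rose, by 0.59 (6.25% of the list, near the share of all genes tested). Without vehicle library 6, 6 glycolysis and 4 clock genes rose and 4 apoptosis regulators fell, and without vehicle library 11 no interferon response gene fell. Calls lost in single omissions had adjusted p up to 0.144 for ID3, 0.137 for SMAD2, 0.108 for RBMS3, 0.127 for F3, 0.0914 for GADD45A, 0.182 for MYH9, 0.250 for TPM2, 0.174 for SESN1 and 0.0781 for BTG2. No member passed the test among 20 heat shock, 8 metallothionein and zinc, 17 PP2A and 13 mitochondrially encoded genes, and the last had a median difference of -0.20. At an unadjusted limma p under 0.05 the rises and falls in these lists were 1 and 5, 1 and 1, 0 and 0, and 0 and 3, and with limma-voom only falls were called (2, 1, 0 and 1).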
